A study of Mus musculus with 28 samples.

Results

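Mitochondrial and peroxisomal fatty acid oxidation with ketone body metabolism was described here through 29 named genes, all of which were found by gene name among the 31673 genes of the series' count and TPM tables. RNA-seq had been run on 28 libraries of mouse cells from a study in which fibroblasts were converted with chemicals into cells of the endoderm lineage. The source fibroblasts were mouse embryonic fibroblasts (MEF, embryonic day 13.5, passage 2, 3 libraries) and mouse neonatal fibroblasts (MNF, passage 2, 2 libraries). Chemically induced endoderm progenitor cells (ciEPC) came from MEF as 2 culture series, with 6 libraries at passages 2, 3, 4, 6, 10 and 22 and 4 libraries at passages 1, 5, 10 and 22, and from MNF as 2 libraries at passages 2 and 3. Hepatocyte-like cells (ciHep) had been made from ciEPC of passage 3 to 10, with 3 libraries of MEF origin and 2 of MNF origin. The reference cells were primary hepatocytes of adult mouse liver (pHep, passage 0, 2 libraries), embryonic stem cells (ESC, passage 5, 2 libraries) and progenitors differentiated from ESC of passage 10 to 15 (ESC_EPC, 2 libraries). Every group carried an Oct4-GFP transgene, in a CBA/CaJ X C57BL/6J background for MNF, their derivatives and pHep, and in that background crossed to 129Sv/Jae females for MEF, their derivatives, ESC and ESC_EPC. Comparisons between MEF-origin and MNF-origin cells, and between MEF-origin cells and pHep, are therefore also comparisons of backgrounds. The source name of the 2 MNF_ciEPC libraries reads MEF, whereas their title, cell type and strain say MNF, and the latter were followed.

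Libraries held 1439670 to 6133147 expected counts. The mean read or fragment length implied by the tables' effective transcript lengths fell into 3 classes. It was 49.5 to 50.6 bases for pHep, MEF_ciEPC, MEF_ciHep and MNF_ciHep, 74.3 to 74.5 bases for the fibroblasts, ESC and MNF_ciEPC, and 186.6 to 195.7 bases for ESC_EPC. Sequencing format and group therefore cannot be told apart in MEF_ciEPC against MEF, MNF_ciHep against MNF_ciEPC, pHep against MEF, ESC_EPC against ESC and the test of whether the step to ciHep differed with origin, in which MNF_ciEPC alone was of another format. The other comparisons stay within 1 format. Defining markers of the labelled cell types were checked first, as CPM, which are counts scaled to library size after TMM normalisation. The summed level of 6 hepatocyte markers was 13831 and 29354 CPM in pHep and 7189 to 14964 CPM in MEF_ciHep, but 14.7 and 53.4 CPM in the libraries labelled MNF_ciHep, where Alb, the gene of serum albumin, stood at 0 and 0.594 CPM and Serpina1c and Cyp3a11 at 0. Those 2 libraries held 1319.7 and 637 CPM of the fibroblast collagen gene Col1a1, against 1.42 to 7.4 CPM in MEF_ciHep. Most of the hepatocyte marker sum in MEF_ciHep was Apoa1, at 13144, 4765 and 10603 CPM against 5097 and 769.6 CPM in pHep. Alb measured 1214 to 2705 CPM in MEF_ciHep against 20178 and 12301 CPM in pHep. Ttr, Serpina1c and Tat were also below both pHep libraries in every MEF_ciHep library, and Cyp3a11 overlapped. The library labelled MEF_ciEPC series 2 passage 22 had a summed level of 4 pluripotency markers of 2832 CPM, against 1.98 to 14.3 CPM in the other 9 MEF_ciEPC libraries and 2421 and 2987 CPM in ESC, and its endoderm marker Sox17 stood at 0.497 CPM against at least 279.5 CPM in the others. Counts of called members in tests of MEF_ciEPC include this library unless stated, and some are also given without it. Group names below are those of the labels. The labels do not say whether replicates came from separate cultures or animals, so p-values measure the spread between these samples.

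Fatty acids are bound in the cytosol, activated to acyl-CoA, carried into mitochondria as carnitine esters and shortened there in repeated rounds of dehydrogenation, hydration, dehydrogenation and thiolysis. In liver the acetyl-CoA made in this way feeds ketone body synthesis during fasting, and peroxisomes shorten very long and branched chains. The nuclear receptor PPAR alpha, encoded by Ppara, and its coactivator PGC-1 alpha, encoded by Ppargc1a, are known to drive many of these genes in hepatocytes through a direct repeat element named DR1. Pdk4, a kinase that inhibits pyruvate dehydrogenase, is known as a marker of the switch from glucose to fatty acid use.

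The promoter sequences are shown because several members are known PPAR alpha targets, and because 1 pair of members faces outwards from a short shared interval. RefSeq windows (GRCm38.p6) of 250 bases before to 50 bases after a gene's start were present for 25 of the 29 members, and not for Acaa2, Cpt1b, Decr1 and Hsd17b4. The DR1 element was searched on both strands as a pair of AGGTCA half-sites in the same direction with 1 base of any kind between them, which reads as a pair of TGACCT on the other strand. No member window held the exact letters, which occurred in 0.0396% of 32851 promoter windows of all genes. With up to 1 mismatch the motif was in 1 of 25 members (4.0%) against 0.554% of all windows, and with up to 2 mismatches in 4 of 25 members (16%) against 3.86% of all windows. Below, each sequence runs 5′ to 3′ along the gene's own strand, with the matching 13 bases in capitals between flanks of at most 30 bases. The flank stops at the gene's GENCODE M21 start where that comes first, as in Fabp1 and Echs1, whose RefSeq starts lie further into the gene. Substitutions count from 1 at the 5′ end of the match as printed, motif base first. The Echs1 match (A8G, A13C) is on the gene's strand and is set against the AGGTCA pair. The Fabp1 match (A10G) and the Etfa match (G2T, A10C) are on the strand opposite to the gene and are set against the TGACCT pair. The fourth match, in Slc25a20, lies just after that gene's start. A match is a description of letters and not a bound site.
Fabp1, chr6:71199782-71199826, plus strand: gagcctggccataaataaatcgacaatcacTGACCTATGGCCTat
Echs1, chr7:140116477-140116534, minus strand: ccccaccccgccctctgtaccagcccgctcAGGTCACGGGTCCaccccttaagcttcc
Etfa, chr9:55512278-55512350, minus strand: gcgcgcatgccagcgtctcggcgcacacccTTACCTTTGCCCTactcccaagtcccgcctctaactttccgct

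Hadha and Hadhb encode the alpha and beta subunits of the mitochondrial trifunctional protein, which runs the later steps of the cycle on long chains. Their starts face away from each other on chromosome 5, with 85 bases between them (chr5:30155163-30155247), of which 69.4% are G or C against a median of 52.7% over all promoter windows, and which hold 9 CG pairs. The interval is shown in the direction of Hadhb, with Hadha starting to its left on the other strand.
Hadha to Hadhb, chr5:30155163-30155247, plus strand: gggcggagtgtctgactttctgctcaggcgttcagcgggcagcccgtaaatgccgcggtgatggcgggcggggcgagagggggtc
The ratio of Hadha to Hadhb CPM lay between 1.15 and 2.43 over the 28 libraries with a median of 1.69, as a ratio of counts that is not corrected for length. It was 1.18, 1.24 and 1.26 in the 3 MEF_ciHep libraries and 2.16 and 2.43 in MNF, so the ratio was not the same in all cell types, and these groups also differ in sequencing format.

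Levels between genes were compared on the TPM scale, which divides by transcript length. In the group means Etfb or Etfa, the paired subunits of the flavoprotein that takes electrons from acyl-CoA dehydrogenases, was the most abundant member in 7 of the 9 groups, for example Etfb at 146 TPM in MEF and 224 TPM in MEF_ciEPC and Etfa at 262 TPM in MNF_ciEPC and 144 TPM in ESC_EPC. In MEF_ciHep the leading members were instead Acaa2, the mitochondrial 3-ketoacyl-CoA thiolase, at 242 TPM and Acadm, the medium-chain acyl-CoA dehydrogenase, at 218 TPM. In pHep the leading member by mean was Eci2, an enoyl-CoA isomerase, at 296 TPM, from libraries at 135 and 457 TPM. It did not lead in the lower library, since Etfa, Hadha and Acadl were at least 154, 152 and 142 TPM in both. Summed over the 29 members, the authors' TPM was 1257 to 1366 in MEF, 1606 and 1689 in MNF, 1506 to 2184 in MEF_ciEPC, 2058 and 2413 in MNF_ciEPC, 2021 to 2801 in MEF_ciHep, 1349.7 and 1596 in MNF_ciHep and 2015 and 3808 in pHep. ESC had 1460.0 and 1693 TPM and ESC_EPC had the lowest sums, 1017 and 1103 TPM. The MEF_ciHep sums thus lay within the range of the 2 pHep sums, and the MNF_ciHep sums overlapped neither MEF_ciHep nor pHep. In bulk samples fewer cells of a type and less RNA per cell cannot be told apart.

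**Figure D1:**
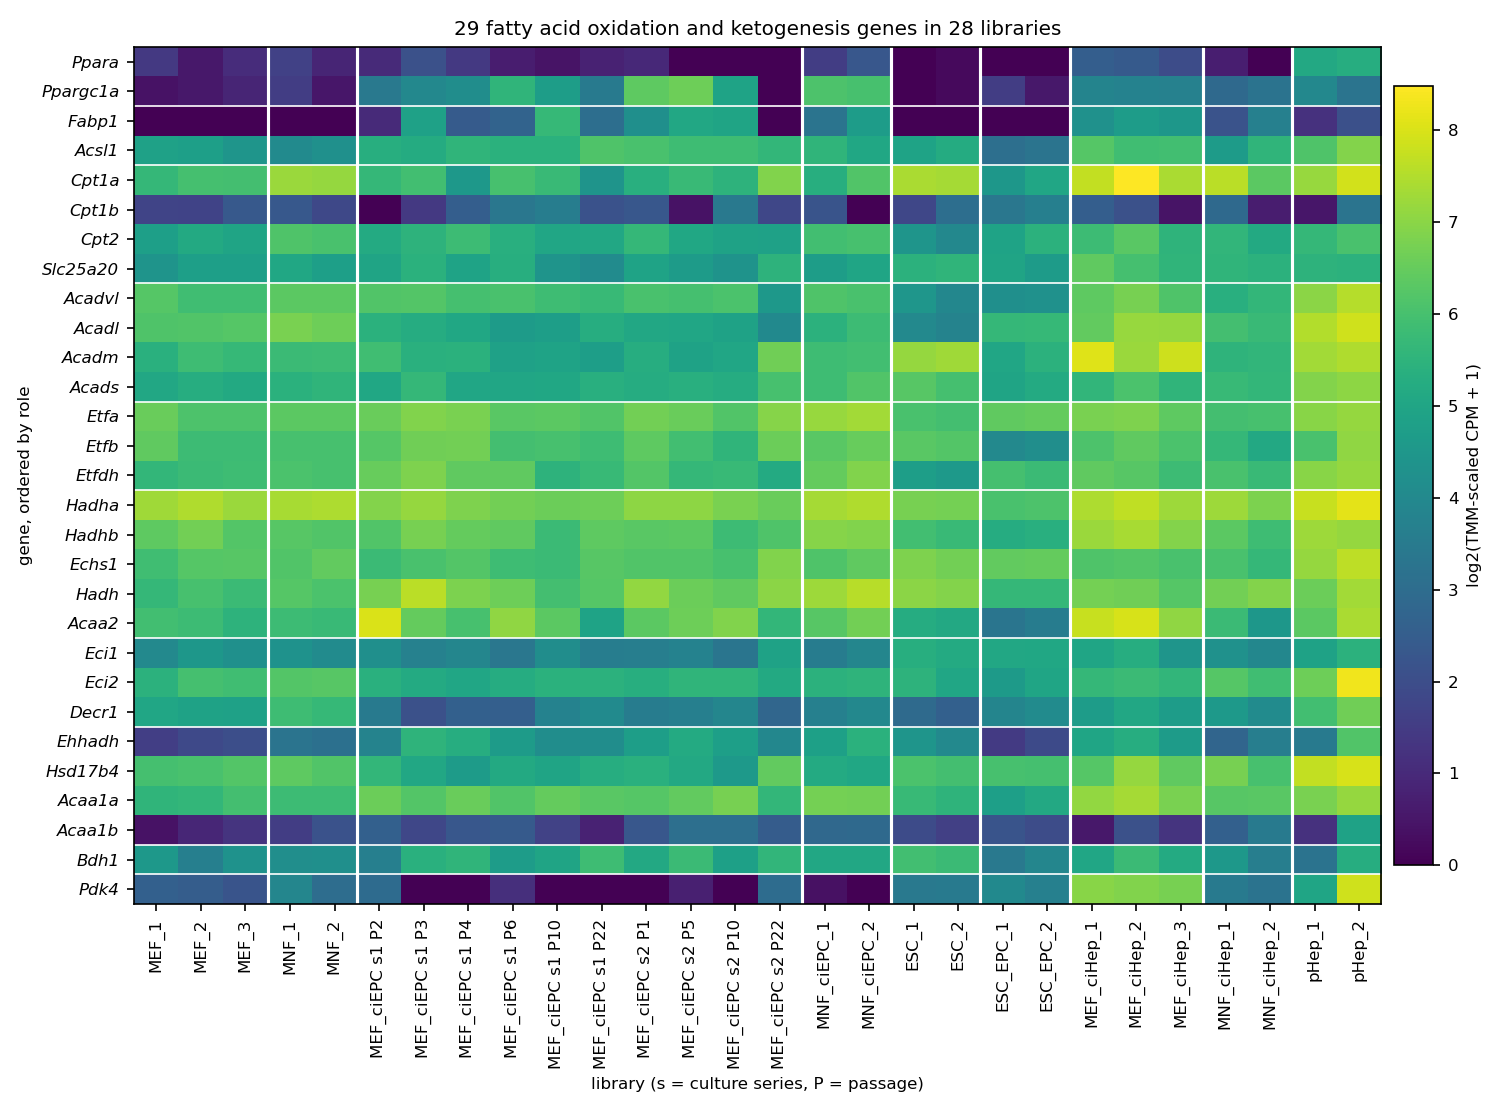
Heat map of log2(TMM-scaled CPM + 1) for the 29 members (rows, by role) in 28 libraries (columns, by group, s for culture series and P for passage). Ppara is brightest in the 2 pHep libraries, at 33.8 and 38.2 CPM, and Fabp1 is dark at 0 CPM in MEF, MNF, ESC and ESC_EPC.

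By mean CPM, pHep was the highest of the 9 groups for 16 members, and for 10 of these both pHep libraries were above every other library. Over the 16062 genes tested these shares were 12.5% and 5.91%. Those 10 were Ppara, Acadvl, Acadl, Acads, Etfdh, Hadha, Echs1, Eci2, Decr1 and Hsd17b4. MEF_ciHep was highest for 6 members (Fabp1, Cpt1a, Slc25a20, Acadm, Acaa2 and Acaa1a), in each case with overlap of libraries from other groups. MNF_ciEPC was highest for Ppargc1a, Etfa and Hadh, ESC for Eci1 and Bdh1, ESC_EPC for Cpt1b and MNF for Cpt2. Cpt1b, the muscle form of carnitine palmitoyltransferase I, never passed 11.6 CPM, and 78.6% of its 50-base stretches are shared with the gene model Gm44502, so its counts are uncertain. The same holds for Etfb (44.8% shared), for Hadhb (19.7%, mostly with Gm13910), which also bears on the Hadha to Hadhb ratio, and for the peroxisomal thiolases Acaa1b and Acaa1a (30.5% and 12.9%), whose reads could be split between the pair. Use of strand in counting is not stated, and Acaa1a overlaps Slc22a14 and Myd88, Acadvl overlaps Dvl2, Bdh1 overlaps Gm15743, Eci2 overlaps Gm16984 and Echs1 overlaps Paox on the opposite strand, so reads of these pairs could not be told apart.

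The first comparison set pHep against MEF and asked which members separate a hepatocyte from a fibroblast. In edgeR's quasi-likelihood test with Benjamini-Hochberg adjustment over 16062 genes, 20 of the 29 members were called higher in pHep (adjusted p under 0.05 and at least 2-fold) and 0 lower, where 17.0% of all genes were called higher and 17.2% lower. The count at an unadjusted p under 0.05 was 27 higher and 0 lower, where 4000 and 4441 of all 16062 genes were. DESeq2 and limma on log2(TPM + 1) also gave 0 lower. The median log2 difference was 1.29 over the members and -0.03 over all genes tested.

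Among the regulators, Ppara (chr15:85734983-85802819, plus strand, GENCODE M21, GRCm38) measured 33.8 and 38.2 CPM in pHep and 1.67, 0.446 and 1.13 CPM in MEF. Its groups were far apart, and it rose by 5.05 on the log2 scale (SE 0.73, adjusted p = 5.44e-05 by edgeR). Ppargc1a (chr5:51454250-51567726, minus strand) measured 14.7 and 8.62 CPM in pHep and 0.334 to 0.844 CPM in MEF. That was a rise of 4.33 (SE 0.68) with no overlap.

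Of the uptake and activation genes, Acsl1, a long-chain acyl-CoA synthetase, rose by 1.89. Fabp1 (chr6:71199827-71205023, plus strand), the liver fatty acid-binding protein, is a gene that hepatocytes are known to express strongly, yet it stood at only 1.33 and 3.23 CPM in pHep. It was at 0 in all 3 MEF libraries, so pHep was at least 7.87-fold higher, taking 3 counts for the whole MEF group as the floor. In the carnitine shuttle Cpt1a, the rate-setting entry enzyme, measured 144 and 239 CPM in pHep against 48.8 to 61.9 CPM in MEF and rose by 1.70, while Cpt2 and the carrier Slc25a20 passed the adjusted p but not the 2-fold minimum (0.87 and 0.78).

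All 4 acyl-CoA dehydrogenases rose, by 1.26 (Acadvl), 1.47 (Acadl), 1.73 (Acadm) and 1.78 (Acads). All 4 peroxisomal members rose as well, led by Acaa1b at 3.97 and Ehhadh, the peroxisomal bifunctional enzyme, at 3.92. Pdk4 (chr6:5483351-5496309, minus strand) measured 31.1 and 231 CPM in pHep and 3.66 to 5.02 CPM in MEF, a rise of 4.84 (SE 0.59). Bdh1, which interconverts acetoacetate and beta-hydroxybutyrate, measured 8.44 and 37.7 CPM in pHep and 11.8 to 22.1 CPM in MEF and did not pass.

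The 2 pHep libraries differed widely for this set. Replicate 2 was above replicate 1 for 26 of 29 members, at least 2-fold above for 9 and at least 2-fold below for 0, with a median ratio of 1.46. Over 12545 genes with at least 1 CPM in both, the median ratio was 0.978 and 10.8% of genes were at least 2-fold above. The widest ratios were in Acaa1b (1.33 against 28.5 CPM) and Cpt1b (0.444 against 8.62 CPM). Next came Pdk4 (31.1 against 231 CPM), Ehhadh (10.2 against 72.2 CPM) and Bdh1 (8.44 against 37.7 CPM). Replicate 2 had less Alb (12301 against 20178 CPM) and more Col1a1 (151 against 7.55 CPM). Of the 5 macrophage markers, C1qa and Clec4f stood at 9.69 and 6.46 CPM in replicate 2 against 0 in replicate 1. Adgre1 (8.62 against 0.444 CPM) and Csf1r (23.2 against 2.22 CPM) were higher there too. Cd68 was lower (40.9 against 84.9 CPM), and the 5 summed to 87.5 to 88.9 CPM over both libraries. The part of these genes in the difference was not tested. Without replicate 2, with the lone pHep library assumed to vary like the other groups, 12 members were called higher than MEF. The calls lost were Acaa1b (log2 difference 0.48), Acaa2 (0.54), Hadh (0.67), Eci2 (0.76), Acadvl (0.93), Decr1 (0.93), Echs1 (0.94) and Fabp1 (5.67).

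**Figure D2:**
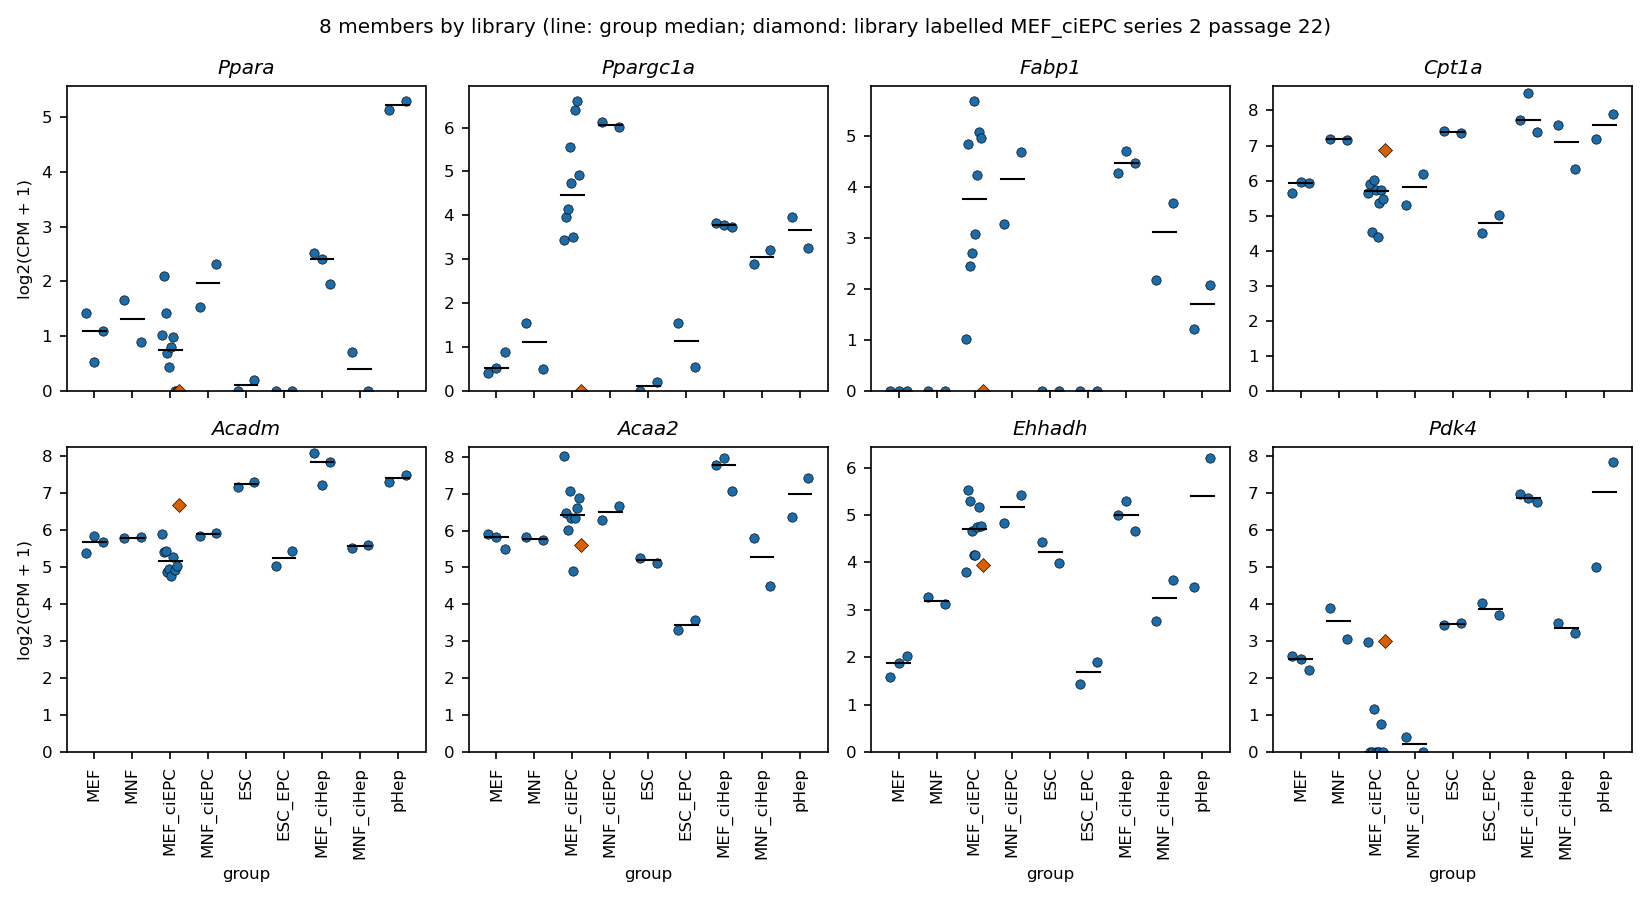
Log2(CPM + 1) of 8 members in each library of the 9 groups, with the group median as a line and the library labelled MEF_ciEPC series 2 passage 22 as a diamond. Ppargc1a stands high in both ciEPC groups except in the diamond at 0. Fabp1 ranges from 1.02 to 50.8 CPM in MEF_ciEPC outside the diamond, which is at 0, and measures 8.65 and 24.9 CPM in MNF_ciEPC. Pdk4 is near 0 in most ciEPC libraries and between 107 and 125 CPM in MEF_ciHep.

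The step from fibroblast to ciEPC was measured once from each origin. In MEF_ciEPC against MEF, 6 members were called higher and 2 lower, against a background of 17.6% and 15.8% of genes, which is 2819 and 2540 of 16062. In MNF_ciEPC against MNF, 5 were called higher and 5 lower, against 18.4% and 21.8%. The medians were 0.21 over the members and 0.12 over all genes in the first, and 0.42 and 0.0 in the second. The called share of the members was thus near that of all genes, and the calls from both origins were of single genes. Ppargc1a, Fabp1, Acsl1 and Ehhadh were called higher, and Acadl and Decr1 lower.

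Ppargc1a measured 0.334, 0.446 and 0.844 CPM in MEF and 0, 21.2 and 96.7 CPM as the lowest, median and highest of the 10 MEF_ciEPC libraries. The only overlap came from the stem-cell-like library at 0, without which the lowest value was 9.9 CPM. It rose by 6.00 (SE 0.61, adjusted p = 1.37e-06 by edgeR). From MNF it went from 1.94 and 0.427 CPM to 68.9 and 63.3 CPM, a rise of 5.80 (SE 0.64). Its partner Ppara did not follow, with 0 to 3.29 CPM in MEF_ciEPC and log2 differences of -0.17 and 0.96 that did not pass.

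Fabp1 was at 0 in all 5 fibroblast libraries. It measured 1.02 to 50.8 CPM in 9 MEF_ciEPC libraries, 0 in the stem-cell-like one, and 8.65 and 24.9 CPM in MNF_ciEPC. These are at least 69.0-fold and at least 51.1-fold higher levels, with the same floor for each fibroblast group. Fabp1 was thus counted in ciEPC at levels above the 1.33 and 3.23 CPM of pHep in 8 of the 10 MEF_ciEPC libraries and both MNF_ciEPC libraries.

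Ehhadh measured 2.01, 2.67 and 3.09 CPM in MEF and 13 to 45 CPM in MEF_ciEPC, with a median of 25.2. No library overlapped, and it rose by 3.36 (SE 0.58). From MNF it went from 8.6 and 7.69 CPM to 27.5 and 42 CPM, a rise of 2.11 (SE 0.58). Hadh, the short-chain hydroxyacyl-CoA dehydrogenase, rose by 1.29 (SE 0.22) in MNF_ciEPC and had a log2 difference of 1.0 (SE 0.20, adjusted p = 0.000757 by edgeR) in MEF_ciEPC, which was not past the 2-fold minimum. Acsl1 rose by 1.03 and 1.22. In MEF_ciEPC it lay at the 2-fold minimum, and its call was lost in DESeq2 (0.99), with RLE scaling (0.99), with the replicate block (0.94), with the 10 libraries as separate samples (1.0), without MEF replicate 3 (0.91) and without culture series 2 (0.95).

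Both members that fell from either origin act in mitochondria. Decr1, the 2,4-dienoyl-CoA reductase needed for polyunsaturated chains, measured 27.8 to 31.8 CPM in MEF and 3.29 to 15.7 CPM in MEF_ciEPC, and fell by 1.62 on the log2 scale (SE 0.25). From MNF it went from 57 and 50.6 CPM to 12 and 14.6 CPM, having dropped by 2.0 (SE 0.27). Acadl, the long-chain acyl-CoA dehydrogenase, measured 69.9 to 75.9 CPM in MEF and 15.4 to 42 CPM in MEF_ciEPC and fell by 1.22 (SE 0.21), and from MNF by 1.06 (SE 0.22). Its groups did not overlap, but the call was lost without MEF_ciEPC series 2 (-0.99), without MNF replicate 1 (-0.90) and without MNF_ciEPC replicate 1 (-0.84).

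From MNF, 3 further members were called lower. Pdk4 went from 14 and 7.26 CPM to 0.315 and 0 CPM. With 2 counts left in the group, its level in MNF was 62.3-fold higher, with a 95% counting interval of 16.8 to 522. In MEF_ciEPC 6 of the 10 libraries had 0 counts of Pdk4, and the difference of -1.56 (SE 0.71, adjusted p = 0.0829 by edgeR) did not pass. The tested samples included the stem-cell-like library at 6.96 CPM and series 1 passage 2 at 6.83 CPM. The rest of MEF_ciEPC had 0 to 1.23 CPM, below the 3.66 to 5.02 CPM of MEF. Hsd17b4, a peroxisomal multifunctional enzyme, fell by 1.15, and Cpt1a went from 146 and 141 CPM to 38.7 and 72 CPM, a fall of 1.36. Without MNF replicate 1 only 2 members were called lower, as Acadl, Cpt1a (-1.26) and Hsd17b4 (-0.97) dropped out. The call of Cpt1a was also lost without MNF replicate 2 (-1.28) and without MNF_ciEPC replicate 1 (-0.92).

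Acaa1b (2.31) and Bdh1 (1.15) were called higher in MEF_ciEPC only by a narrow margin, at adjusted p of 0.0477 and 0.0314 by edgeR. Acaa1b lost its call without any single MEF replicate (1.98, 2.29 and 2.76) and without series 2 (1.84). Bdh1 lost it without MEF replicate 2 (0.91) or 3 (1.22) and without series 1 (1.30) or 2 (1.15). Leaving out MEF replicate 3 cut the members called higher from 6 to 3, and leaving out series 2 cut those called lower from 2 to 1. Without the stem-cell-like library the counts were 6 higher and 3 lower.

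**Figure D3:**
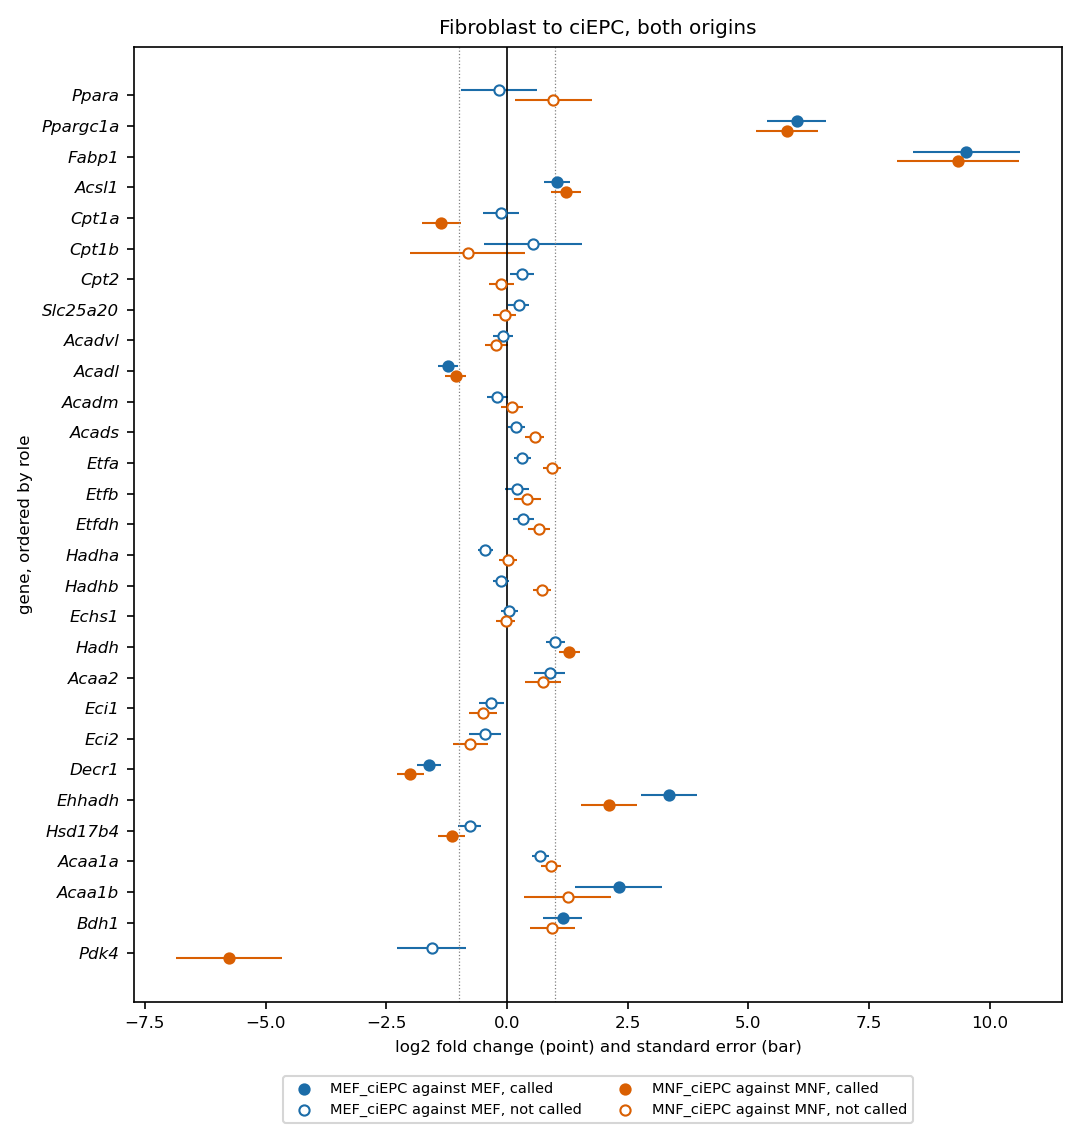
Log2 fold change with its standard error for each member in MEF_ciEPC against MEF (blue) and MNF_ciEPC against MNF (orange), with called members as filled points and dotted lines at 2-fold. Ppargc1a at 6.00 and 5.80 and Fabp1 lie far to the right for both origins, and Decr1 and Acadl lie left of zero for both.

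The next step, from ciEPC to ciHep, was again measured from each origin, and here the origins parted. In MEF_ciHep against MEF_ciEPC, 10 members were called higher and 1 lower, against 17.8% and 14.8% of all genes, with a median of 0.53 over the members and -0.07 over all genes. In MNF_ciHep against MNF_ciEPC, 3 were called higher and 5 lower, against 19.5% and 10.8%, with a median of -0.44 against 0.05.

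Summed markers of several cell types moved with the MEF step, though not every marker of a list did. From MEF_ciEPC without the stem-cell-like library to MEF_ciHep, the summed level of 3 cholangiocyte markers went from 136 to 1365 CPM to 1867 to 2918 CPM, that of 4 enterocyte markers from 0 to 23.2 CPM to 141 to 194 CPM, and that of 4 endothelial markers from 26.3 to 358 CPM to 148 to 677 CPM. The 5 macrophage markers summed to 5.45 to 26.3 CPM and then 67.8 to 198 CPM, with the defining markers Adgre1, C1qa and Clec4f at 0 in both groups. Krt19 went from 38.7 to 242 CPM to 1209.9 to 1876 CPM. Krt7 (21.4 to 1174 and 651 to 1035 CPM) and Sox9 (4.85 to 44.7 and 6.19 to 14.7 CPM) overlapped. Pecam1 went from at most 2.74 CPM to 10.4 to 131 CPM, while Cdh5, Stab2 and Kdr overlapped, as did the endothelial sums. Csf1r went from at most 3.35 CPM to 60.2 to 179.7 CPM, and Cd68 overlapped (5.45 to 26.3 and 7.57 to 18.4 CPM). Of the enterocyte markers only Cdx2 overlapped. The 5 fibroblast markers summed to 694 to 1486 CPM and then 72.1 to 159.6 CPM, and in the MNF step to 1275 and 1538 CPM and then 2539.9 and 4454 CPM. The fibroblast markers did not move alike. Pdgfra, the largest part of each of these ciEPC sums, fell in both steps. It went from 667 to 1483 CPM to 56.6 to 155 CPM, and from 1507 and 1264 CPM to 838 and 981 CPM. Col1a1 was at 0 to 5.49 CPM in those MEF_ciEPC libraries except series 1 passage 2 (132 CPM), and at 1.42 to 7.4 CPM in MEF_ciHep. In the MNF step Col1a1 rose from 0.944 and 0.902 CPM to 1319.7 and 637 CPM, and Col1a2, Thy1 and Dcn rose too. The part of these cell types in the member levels was not tested.

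By role, the members called higher in MEF_ciHep were 1 of 2 regulators, with the other called lower, 2 of 4 of the carnitine shuttle, 2 of 4 acyl-CoA dehydrogenases, 2 of 3 isomerases and reductases, 1 of 5 hydratases, hydroxyacyl dehydrogenases and thiolases, 1 of 4 peroxisomal members and Pdk4. Acadm (chr3:153922357-153944632, minus strand) measured 267, 148 and 227 CPM in MEF_ciHep and 26.1, 34.5 and 100.4 CPM as the lowest, median and highest of MEF_ciEPC, where the highest was the stem-cell-like library. The groups did not overlap and it rose by 2.32 (SE 0.22, adjusted p = 1.45e-06 by edgeR). Acadl measured 85.7, 144 and 139 CPM, above all MEF_ciEPC libraries, and rose by 1.99 (SE 0.21). Acadvl (0.53) and Acads (0.43) did not pass.

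Cpt1a (chr19:3322334-3385733, plus strand) measured 210.3, 358 and 168 CPM in MEF_ciHep and 20.1 to 117 CPM in MEF_ciEPC, and rose by 2.25 (SE 0.40) with no overlap. Slc25a20, the carnitine-acylcarnitine carrier, rose by 1.14 (SE 0.22), from a median of 29.3 CPM to 83.8, 62.6 and 46.3 CPM. This call was lost without MEF_ciHep replicate 1 (0.92). Decr1 rose by 1.53, Hsd17b4 by 1.37 and Eci1, an enoyl-CoA isomerase, by 1.07. None of the 3 electron transfer members passed: Etfa, Etfb and Etfdh had log2 differences of 0.10, -0.03 and 0.11 with SE of 0.17, 0.26 and 0.21.

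Pdk4 showed the widest change of all members. It measured 125, 117 and 107 CPM in the 3 MEF_ciHep libraries, against 0 in 6 MEF_ciEPC libraries and at most 6.96 CPM in the other 4. That was a rise of 6.28 (SE 0.70, adjusted p = 5.07e-06 by edgeR). In MNF_ciHep it measured 10.2 and 8.31 CPM against 0.315 and 0 CPM in MNF_ciEPC, a ratio of 55.4 with a counting interval of 14.5 to 471. Those MNF_ciHep values lay in the range of MNF (14 and 7.26 CPM).

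Ppara rose by 2.09 (SE 0.71) in MEF_ciHep, to 4.74, 4.3 and 2.89 CPM, which was still low, and overlapped MEF_ciEPC. In MNF_ciHep it was at 0.64 and 0 CPM against 1.89 and 3.97 CPM in MNF_ciEPC, with 2 counts left, and did not pass (-2.81, SE 1.08). Ppargc1a went the other way from Ppara and fell in both, by 1.51 (SE 0.44) to 13.3, 12.7 and 12.3 CPM in MEF_ciHep and by 3.22 (SE 0.55) to 6.4 and 8.31 CPM in MNF_ciHep. Acaa2 measured 219.7, 250.2 and 133 CPM in MEF_ciHep and rose by 1.06 (SE 0.34), within the MEF_ciEPC range that ends at 259 CPM in series 1 passage 2.

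Several of these MEF_ciHep calls rest on single libraries. Without MEF_ciEPC series 2, Ppara (1.38), Acaa2 (0.86) and Ppargc1a (-0.59) lost theirs, leaving 0 members lower. Without MEF_ciHep replicate 1 Ppara (1.98) and Acaa2 (0.99) did, and without replicate 2 Ppara (2.01), Acaa2 (0.86) and Eci1 (0.82). Eci1 also lost it without series 1 (0.99). Without the stem-cell-like library 9 members were called higher, as Acaa2 (0.95) dropped out, and without that library and series 1 passage 2 there were 10.

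In MNF_ciHep the called rises were Pdk4, Cpt1a (1.28, SE 0.41) and Hsd17b4 (1.29, SE 0.27). Cpt1a measured 193 and 80.1 CPM in MNF_ciHep and 38.7 and 72 CPM in MNF_ciEPC. Besides Ppargc1a the called falls were Etfa (-1.31, SE 0.19), Etfb (-1.04), Acaa2 (-1.22) and Ehhadh (-2.12, SE 0.62). Ehhadh went from 27.5 and 42 CPM to 5.76 and 11.3 CPM, close to the 8.6 and 7.69 CPM of MNF. Without MNF_ciHep replicate 1 only 1 member was called higher, since Cpt1a (0.40) and Hsd17b4 (0.76) were lost, and Ehhadh (-1.76) too. Without MNF_ciEPC replicate 2 only 3 were called lower, with Acaa2 at -1.08 and Ehhadh at -1.86. Cpt1a was also lost without MNF_ciEPC replicate 1 (0.86), and Acaa2 (-0.86) and Etfb (-0.93) without MNF_ciHep replicate 2.

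**Figure D4:**
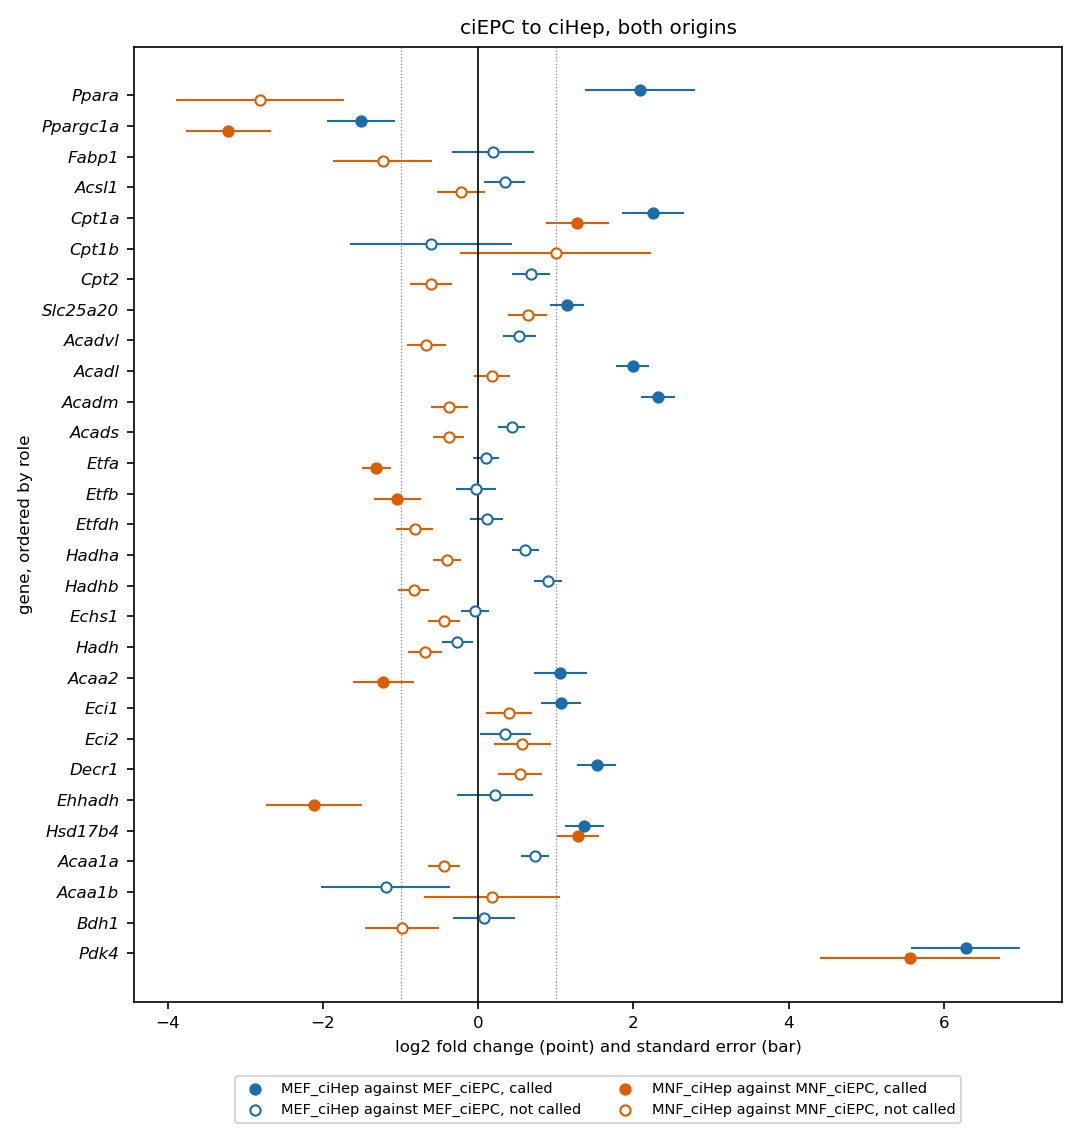
Log2 fold change with its standard error for each member in MEF_ciHep against MEF_ciEPC (blue) and MNF_ciHep against MNF_ciEPC (orange), with called members as filled points and dotted lines at 2-fold. Most orange points lie left of their blue partners, with Acadm at 2.32 in blue and -0.37 in orange, while Pdk4 lies far to the right for both.

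Whether the step itself differed with the origin was tested as an interaction, the change in MNF cells minus the change in MEF cells. Of the 29 members 0 had a positive difference that was called and 11 a negative one, against 17.6% and 12% of all genes, and the median was -1.01 over the members and 0.18 over all genes. The 0 held at an unadjusted p under 0.05, which 4121 of all 16062 genes passed with a positive difference, and in DESeq2 and limma. The 11 were Ppara (-4.91), Acadm (-2.68), Ehhadh (-2.34), Acaa2 (-2.28), Acadl (-1.81), Hadhb (-1.72), Etfa (-1.41), Cpt2 (-1.29), Acadvl (-1.20), Acaa1a (-1.18) and Hadha (-1.01). A negative value is a signed difference and not always a smaller change: Etfa had -1.31 in MNF cells and 0.10 in MEF cells, and Ehhadh -2.12 and 0.22. The Ppara value rests on 2 counts in MNF_ciHep, against 34 in MNF_ciEPC, 27 in MEF_ciEPC and 43 in MEF_ciHep. For Acadm the difference had an SE of 0.32 and an adjusted p of 2.43e-05 by edgeR. Pdk4, which rose from both origins, had a difference of -0.70 with an SE of 2.65, so the data do not show whether its rise was alike. Leaving out single libraries or series gave 9 to 13 members, and without the stem-cell-like library there were 10, as Hadha (-0.94) dropped out. Hadha also lost its call without the low-count filter (-0.99) and without MNF_ciEPC replicate 2 (-0.97), MEF_ciHep replicate 2 (-0.89) or MNF_ciHep replicate 2 (-0.80). Ehhadh lost it in limma (-2.04), without either MEF_ciEPC series (-2.41 and -2.31) and without MNF_ciEPC replicate 2 (-2.03), MEF_ciHep replicate 2 (-2.15) or MNF_ciHep replicate 1 (-1.84). Cpt2 lost it without MEF_ciEPC series 2 (-1.17) or MNF_ciHep replicate 2 (-1.09), and Acadvl in limma (-0.87) and without MNF_ciHep replicate 1 (-1.04). MNF_ciEPC was the only 1 of the 4 groups with an implied length of 74.5 bases, so the change of format sits in the MNF step and cannot be told apart from it. The hepatocyte and fibroblast marker levels given at the opening moved with this result, and their part in it was not tested.

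Set directly against each other, MEF_ciHep had 9 members called higher than MNF_ciHep and 0 lower, against 16.1% and 17.8% of all genes. At an unadjusted p under 0.05 there were 19 higher and 1 lower, where 4075 and 4508 of all 16062 genes were. DESeq2 and limma gave 0 lower. Acaa2 measured 219.7, 250.2 and 133 CPM against 54.7 and 21.4 CPM, a difference of 2.38 (SE 0.38). Acadm measured at least 148 CPM against 44.8 and 46.9 CPM, a difference of 2.24 (SE 0.23). Pdk4 measured 107 to 125 CPM against 10.2 and 8.31 CPM, a difference of 3.65 (SE 0.63). All 3 were clear of overlap. The other 6 were Ppara (3.25), Ehhadh (1.95), Bdh1 (1.27), Acadl (1.13), Hadhb (1.07) and Acadvl (1.0). Ppara had 43 counts against 2, a 9.87-fold ratio with a counting interval of 2.57 to 84.1. Without MEF_ciHep replicate 2 only 5 were called, with Acadl at 1.0, Bdh1 at 0.98, Hadhb at 0.96 and Acadvl at 0.82. Calls were also lost without MNF_ciHep replicate 1 (Acadvl 0.86, Ehhadh 1.48) and replicate 2 (Bdh1 0.91, Hadhb 0.85, Ppara 2.61).

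How far ciHep came to the level of primary hepatocytes was asked against pHep. In MEF_ciHep 1 member was called higher and 7 lower, against 15.1% and 10.8% of all genes, with a median of -0.39 over the members and 0.01 over all genes. In MNF_ciHep 0 were called higher and 18 lower, against 18.4% and 13.4%, with a median of -1.13 against 0.11. At an unadjusted p under 0.05 the MNF_ciHep count was 0 higher and 20 lower, where 4435 and 3587 of all 16062 genes were. For MNF_ciHep, DESeq2 gave 0 higher and limma gave 1. Both comparisons share the 2 pHep libraries. In MEF_ciHep all 3 libraries were below both pHep libraries for 11 members and above both for 2, and in MNF_ciHep both libraries were below for 21 and above for 1. Of all genes tested, 25.6% were below and 26.9% above in MEF_ciHep, and 29.6% and 35.3% in MNF_ciHep.

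Ppara had the widest deficit. Its 4.74, 4.3 and 2.89 CPM in MEF_ciHep compare with 33.8 and 38.2 CPM in pHep, a difference of -3.12 (SE 0.64, adjusted p = 0.00163 by edgeR). In MNF_ciHep, with 2 counts against 147, pHep was 84.9-fold higher with a counting interval of 23.1 to 708. Ppargc1a did not separate MEF_ciHep from pHep, at 12.3 to 13.3 CPM against 14.7 and 8.62 CPM (0.16, SE 0.49). Fabp1 was the 1 member called higher, at 18.5, 25.1 and 21.3 CPM in MEF_ciHep against 1.33 and 3.23 CPM (3.32, SE 0.72), and in MNF_ciHep it measured 3.52 and 11.9 CPM (1.72, SE 0.80, not called).

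The other 6 members called lower in MEF_ciHep were Acads (-1.16), Echs1 (-1.23), Hsd17b4 (-1.15), Decr1 (-1.47), Eci2 (-1.98) and Acaa1b (-2.85). Acads, the short-chain acyl-CoA dehydrogenase, measured 47.4, 67.3 and 46.3 CPM against 119 and 130.3 CPM. Echs1, the short-chain enoyl-CoA hydratase, measured 65.5 to 74.2 CPM against 141 and 198 CPM. Decr1 measured 24.6, 32.9 and 24.6 CPM against 59.1 and 99.1 CPM, so its rise from ciEPC had brought it to the 27.8 to 31.8 CPM of MEF. Neither Acadm (0.39, SE 0.21) nor Cpt1a (0.41, SE 0.37) nor Acaa2 (0.74, SE 0.35) nor Pdk4 (-0.12, SE 0.50) passed the test in MEF_ciHep against pHep, and their libraries overlapped. For Pdk4 the pHep libraries alone spanned 31.1 to 231 CPM.

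Without pHep replicate 2 the MEF_ciHep counts became 5 higher and 4 lower. Echs1 (-1.0) and Eci2 (-0.93) lost their calls and Acaa1b turned to 0.57, so its direction rests on that library. Without MEF_ciHep replicate 1 Hsd17b4 (-0.98) and Acaa1b (-2.51) lost theirs. In MNF_ciHep the lower members included all 4 acyl-CoA dehydrogenases (-1.82 for Acadvl, -1.84 for Acadl, -1.85 for Acadm, -1.29 for Acads), all 3 electron transfer members and Pdk4 (-3.77). Of the 7 lower in MEF_ciHep, 6 were also among the 18. Without pHep replicate 2 that count was 12, and without MNF_ciHep replicate 1 there was 1 member higher. The 6 that dropped out without pHep replicate 2 were Etfa (-0.99), Etfb (-0.64), Acaa2 (-1.05), Eci1 (-0.80), Eci2 (-0.54) and Ehhadh (-0.33). Ehhadh was also lost without MNF_ciHep replicate 1 (-1.81), Eci1 (-0.92), Etfdh (-0.99) and Hadhb (-0.82) without replicate 2, and Hadhb (-0.98) without pHep replicate 1.

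**Figure D5:**
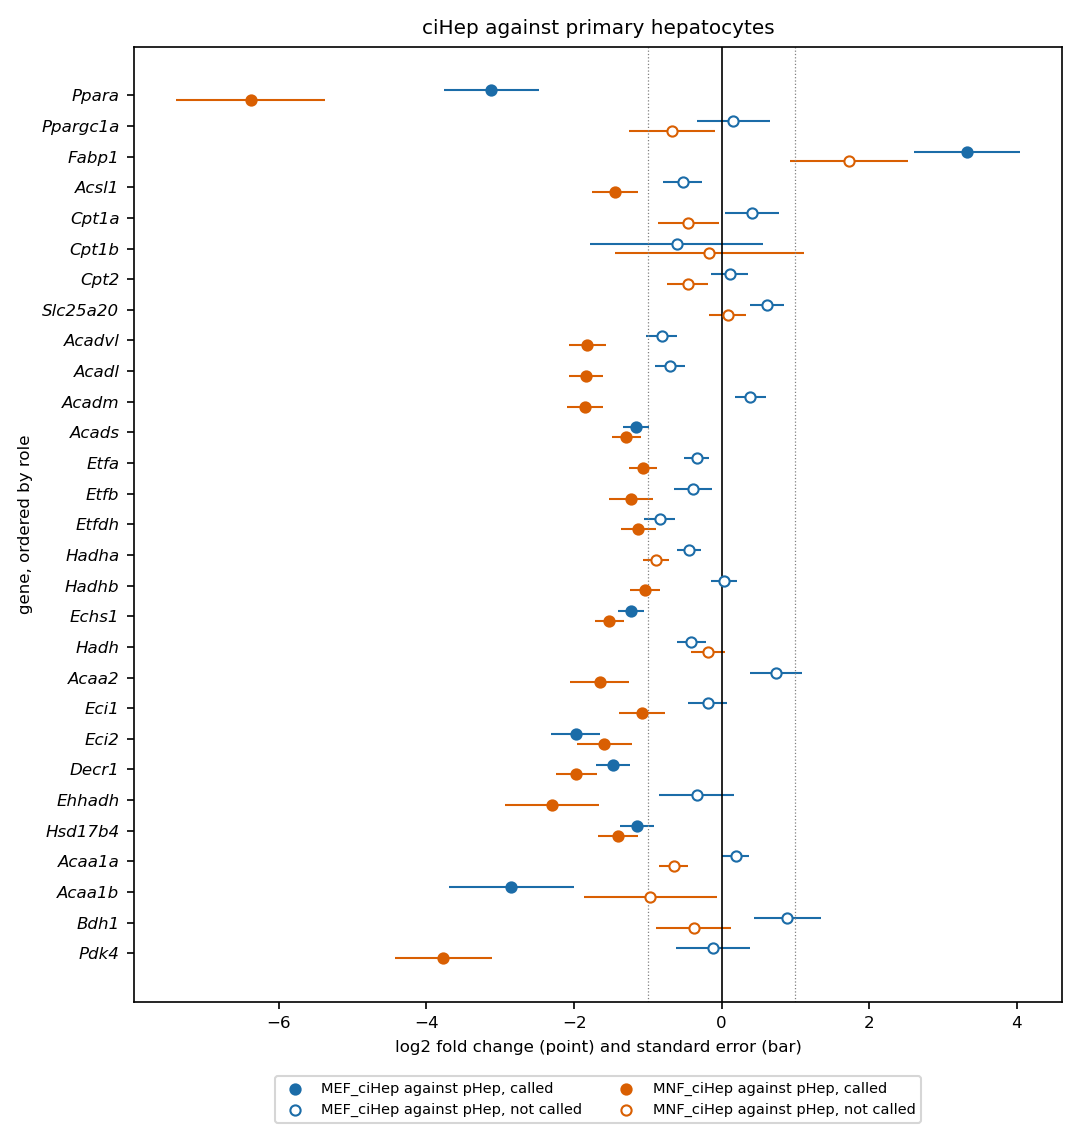
Log2 fold change with its standard error for each member in MEF_ciHep against pHep (blue) and MNF_ciHep against pHep (orange), with called members as filled points and dotted lines at 2-fold. Fabp1 at 3.32 is the only filled point right of zero, and 18 orange points left of zero are filled.

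The route from ESC to ESC_EPC gave a different pattern from the fibroblast routes in its single genes. In ESC_EPC against ESC, 4 members were called higher and 9 lower, against 18.5% and 14.7% of all genes, with a median of -0.48 over the members and 0.0 over all genes. Acadl went from 14.8 and 13 CPM in ESC to 49.4 and 51 CPM in ESC_EPC, a rise of 1.83 (SE 0.25), and Decr1 (1.35), Etfdh (1.24) and Cpt2 (1.04) rose as well. Acadm went from 142 and 155 CPM to 31.4 and 42.4 CPM and fell by 2.05 (SE 0.24), and Cpt1a went from 169 and 163 CPM to 21.7 and 31.7 CPM and fell by 2.67 (SE 0.44). The 2 groups did not overlap for any of these 3. The other members lower were Ehhadh (-3.00), Bdh1 (-2.29), Etfb (-2.27), Acsl1 (-2.08), Acaa2 (-1.89), Hadh (-1.34) and Acads (-1.11).

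Fabp1 was at 0 in all ESC and ESC_EPC libraries and Ppargc1a at 1.93 and 0.453 CPM in ESC_EPC, whereas Ppargc1a measured at least 9.9 CPM in every ciEPC library but the stem-cell-like one. Acadl, Decr1, Acsl1 and Ehhadh thus had log2 differences of opposite sign in the ESC route and in both fibroblast routes. The difference between routes was not tested, and ESC_EPC libraries also differ in implied length. Cpt2 lost its call without ESC_EPC replicate 2 (0.70) and without ESC replicate 2 (0.82), and Acads without ESC replicate 1 (-0.96).

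Within MEF_ciEPC, 10 libraries over passages 1 to 22 allowed a test of drift with log2 passage, with the culture series as a term. Of 28 members tested, 0 were called higher and 0 lower with passage, against 0.00807% and 0.0161% of 12390 genes, so few genes of any kind were called. At an unadjusted p under 0.05 there were 0 higher and 3 lower, where 702 and 723 of the 12390 genes were. DESeq2 and limma also called 0, and edgeR called 0 and 0 without the stem-cell-like library. The lowest adjusted p was 0.247, for Etfdh (-0.27 per doubling of passage, SE 0.07). Ppargc1a lay between 9.9 and 46 CPM in series 1 and at 82.8, 96.7 and 29.1 CPM at passages 1, 5 and 10 of series 2. Fabp1 ranged from 1.02 CPM at passage 2 to 50.8 CPM at passage 10 within series 1.

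Some members passed the adjusted p of edgeR without reaching 2-fold. On the adjusted p alone, 26 members were higher and 0 lower in pHep against MEF, where 21.9% and 24.5% of all genes were. In MEF_ciEPC against MEF they were 9 and 4 (24.3% and 21.9%), and in MNF_ciEPC against MNF 10 and 5 (25.3% and 27.2%). The step to MEF_ciHep then had 14 higher and 1 lower (23.3% and 23.5%) and the step to MNF_ciHep 4 and 9 (23.2% and 17.5%), with 0 and 14 members in the interaction (19.8% and 14.3%). Against pHep, MEF_ciHep had 2 and 11 (19.3% and 16.6%) and MNF_ciHep 0 and 20 (23.0% and 18.9%), and MEF_ciHep had 15 higher and 0 lower than MNF_ciHep (22.1% and 24.5%). In ESC_EPC against ESC they were 4 and 13 (23.5% and 20.3%). The widest gap to the 2-fold counts was on the higher side in pHep against MEF and in MEF_ciHep against MNF_ciHep, with 6 more members each.

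Genes of the same pathway outside the 29 were read from a list of 107, of which 106 were in the tables and 100 were tested. In MEF_ciEPC against MEF 22 were called higher and 15 lower, and in MNF_ciEPC against MNF 18 and 25, which is near the shares over all genes (17.6% and 15.8%, 18.4% and 21.8%). In MEF_ciHep against MEF_ciEPC the counts were 42 and 4 (17.8% and 14.8% of all genes), in MNF_ciHep against MNF_ciEPC 20 and 9 (19.5% and 10.8%), and in pHep against MEF 58 and 6 (17.0% and 17.2%). Against pHep they were 17 and 25 in MEF_ciHep (15.1% and 10.8%) and 6 and 43 in MNF_ciHep (18.4% and 13.4%). In the test of the origin difference 7 were called positive and 27 negative (17.6% and 12%), with a median of -0.83. The median log2 difference of the list was 0.91 in the MEF_ciEPC to MEF_ciHep step and 0.10 in the MNF step.

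Where 17.8% of all genes were called higher and 14.8% lower, MEF_ciHep against MEF_ciEPC had 6 higher and 2 lower of 10 transcriptional regulators, 7 and 1 of 15 genes of fatty acid uptake and binding, and 3 and 1 of 6 acyl-CoA thioesterases. With 0 lower, it had 7 higher of 11 further PPAR alpha targets and fasting signals, 5 of 8 of lipid droplets and lipolysis, 3 of 5 of omega oxidation, 4 of 13 of accessory mitochondrial oxidation, 4 of 17 of peroxisomal oxidation, 2 of 8 of ketone bodies and 1 of 7 of carnitine metabolism. The last 3 shares were near that of all genes. Cd36, a fatty acid translocase, averaged 34.6 ± 20 CPM (SD, n = 3) in MEF_ciHep, with 1 count in all MEF_ciEPC libraries together. Acox2, a peroxisomal oxidase for branched chains and bile acid intermediates, averaged 76.9 ± 36.9 CPM and rose by 8.09 (SE 0.69). Fabp2, the intestinal fatty acid-binding protein and here also an enterocyte marker, averaged 14.4 ± 5.24 CPM, and the enterocyte marker Vil1 measured 104 to 159 CPM in the same libraries against 3.23 and 4.89 CPM in pHep. The summed enterocyte markers were 141 to 194 CPM in MEF_ciHep and 5.92 and 12.9 CPM in pHep, and their part in the member levels was not tested.

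Fabp3, the heart-type binding protein, averaged 459 ± 82.9 CPM (SD, n = 2 culture series) in MEF_ciEPC against 11.4 ± 4.07 CPM in MEF, a rise of 5.34 (SE 0.54), and rose by 7.41 (SE 0.71) in MNF_ciEPC. It remained at 406 ± 192 CPM in MEF_ciHep, where pHep had 3 counts in all. All 6 acyl-CoA thioesterases of the list were called lower in MEF_ciHep than in pHep, as were 10.8% of all genes, and 4 of the 6 had no overlap of libraries. Among the 6, Acot7 averaged 4.73 ± 2.81 CPM against 126 ± 50.4 CPM. Acot2 measured 17.2 to 33.6 CPM in MEF_ciHep against 7.11 and 177 CPM in pHep, so its higher mean in pHep rests on replicate 2. Slc27a5, the bile acyl-CoA synthetase of hepatocytes, averaged 0.978 ± 0.442 CPM in MEF_ciHep against 23.2 ± 0.310 CPM in pHep and was at 0 in MNF_ciHep. Oxct1, the enzyme by which tissues other than liver use ketone bodies, fell from 302 ± 39.3 CPM in MEF to 39.1 ± 9.06 CPM in MEF_ciEPC (-2.95, SE 0.37) and stood at 72.2 ± 50.2 CPM in pHep.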

How the data were processed

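RNA had been extracted with Trizol and made into Illumina TruSeq libraries, per the labels' protocols. Expected counts and TPM per gene had been made by the authors with RSEM 1.2.4 on mm10, per the submitters' processing notes; the aligner, the annotation release and the use of strand are not given in the sources used here. The series tables were identical to the 28 sample tables. The deposited expected counts were rounded to whole numbers and the deposited TPM was used to compare levels between genes.

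The 10 MEF_ciEPC libraries were summed into 1 sample per culture series, so that passages of a series were not counted as separate replicates. A single model of 20 samples was fitted with edgeR 4.0.16 (R 4.3.3, quasi-likelihood F test, TMM normalisation; low genes removed by filterByExpr at its minimum count of 10), 16062 genes were tested and p-values were adjusted over all of them by Benjamini-Hochberg. A gene was called at an adjusted p under 0.05 and a fold of at least 2; the passage trend had no fold minimum. All 29 members passed the filter in that fit and 28 in the fit of the passage trend, which Ppara did not enter. SE is the log2 difference divided by the square root of F. Each library's CPM is TMM-scaled over 28 libraries, and means ± SD are over samples. Against a group at 0, folds use a floor of 3 counts over the group; ratios with 1 to 3 counts carry an exact 95% interval. Floors and intervals cover counting error only.

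Positions are from GENCODE M21, in which 31426 of the 31673 identifiers and all 29 members were found, and promoter letters are from RefSeq (GRCm38.p6). DESeq2 1.42.0, limma 3.58.1 on log2(TPM + 1) and single-library removal were among the alternatives. The 29 members, the lists of pathway genes and markers and the naming rule were chosen with earlier results of these data known. All members could be named; of the other pathway genes, those named are among the 3 largest called rises and 3 largest falls of a comparison, provided that libraries did not overlap and the group with more averaged 10 CPM or above. Lineage markers were named as checks of labels. The statistics were tested on simulated data. No pair of libraries agreed within sampling noise.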

Additional observations from a re-analysis of the deposited data

Results flagged for a closer look

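Among the 10 MEF_ciEPC libraries 1 library lay apart from the rest for 8 of the 29 members, by a gap test that chance passes in about 1 in 20 groups. For 6 of these it was the library labelled series 2 passage 22, whose pluripotency markers stood at ESC level. It was the highest for Cpt1a (117 CPM, next 63.7), Acadm (100.4 CPM, next 58), Echs1 (117 CPM, next 77.2), Eci1 (28.8 CPM, next 17.7) and Hsd17b4 (85.5 CPM, next 48.5), and the lowest for Acadvl (21.9 CPM, next 51.9). In ESC these members measured 163 to 169, 142 to 155, 101 to 114, 35.5 to 38.6, 61.3 to 66.6 and 14.4 to 21 CPM in the same order. The other 2 were Acaa2 at 259 CPM in series 1 passage 2 (next 134), a library that also held 132 CPM of Col1a1, and Ppara at 3.29 CPM in series 1 passage 3 (next 1.67).

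The ciEPC to ciHep step differed between MNF and MEF origin for 11 members by the interaction test in edgeR. The log2 differences, MNF minus MEF, were -4.91 for Ppara, -2.68 for Acadm, -2.34 for Ehhadh, -2.28 for Acaa2, -1.81 for Acadl, -1.72 for Hadhb, -1.41 for Etfa, -1.29 for Cpt2, -1.2 for Acadvl, -1.18 for Acaa1a and -1.01 for Hadha. The Ppara value rests on 2 counts in MNF_ciHep, and its MNF step alone did not pass. Among the 4 groups only MNF_ciEPC had an implied length of 74.5 bases, so sequencing format cannot be told apart from the MNF step. Summed hepatocyte markers were 14.7 and 53.4 CPM in the libraries labelled MNF_ciHep and 7189 to 14964 CPM in MEF_ciHep, where most of the sum was Apoa1.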

How the results depend on the processing

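Of 116 called member results, 63 kept their call and direction in every alternative run and 53 lost it in at least 1, of which 1 reversed: Acaa1b in MEF_ciHep against pHep was 0.57 without pHep replicate 2, with a range of -3.8 to 0.57 over single libraries left out. The calls lost, out of 116, were 2 in DESeq2, 3 with RLE scaling, 3 without the low-count filter, 15 with the 10 MEF_ciEPC libraries as separate samples, 27 in limma and 2 without the library labelled MEF_ciEPC series 2 passage 22. Among them were Etfb in MNF_ciHep against MNF_ciEPC, lost in DESeq2 and with RLE scaling (-0.97 in both), and Fabp1 in MEF_ciHep against pHep, lost with the 10 separate libraries (3.25, adjusted p = 0.144 by edgeR). Counts of members moved by over 1.5 times as follows. With no fold minimum, MEF_ciEPC against MEF had 4 lower, MNF_ciEPC against MNF 10 higher, MNF_ciHep against MNF_ciEPC 9 lower, MEF_ciHep against pHep 2 higher and 11 lower, and MEF_ciHep against MNF_ciHep 15 higher. In limma, MNF_ciEPC against MNF had 3 lower, MNF_ciHep against MNF_ciEPC 1 higher, and MNF_ciHep against pHep 1 higher and 10 lower. With 10 separate libraries, MEF_ciHep against MEF_ciEPC had 0 lower, MNF_ciHep against MNF_ciEPC 3 lower and MEF_ciHep against pHep 0 higher; that setting counts passages of 1 line as replicates. Without series 2 passage 22 and series 1 passage 2, chosen after seeing the data, MEF_ciEPC against MEF had 4 lower. Leaving out 1 library, or 1 culture series, gave 3 to 6 higher and 1 to 2 lower in MEF_ciEPC against MEF, 6 to 7 and 2 to 5 in MNF_ciEPC against MNF, 7 to 11 and 0 to 1 in MEF_ciHep against MEF_ciEPC, 1 to 3 and 3 to 7 in MNF_ciHep against MNF_ciEPC, 1 to 5 and 4 to 9 in MEF_ciHep against pHep, 0 to 1 and 12 to 18 in MNF_ciHep against pHep, 12 to 21 higher in pHep against MEF, 5 to 11 higher in MEF_ciHep against MNF_ciHep, 3 to 4 and 8 to 9 in ESC_EPC against ESC, and 9 to 13 negative differences in the test of origin. The cause was not tested. Whether same-numbered samples were paired was not settled. Of 73 such pairs 0 correlated above 0.1 in their deviations from group means, with a range of -0.163 to 0.085, and 1 was below -0.1. In groups of 2 samples the 2 deviations mirror each other, so these pairs are not independent and cannot exclude pairing. With the replicate block 4 of the 116 calls were lost; for example MEF_ciEPC against MEF had 4 higher and 2 lower, MEF_ciHep against MEF_ciEPC 11 and 1, and pHep against MEF 19 higher. Totals of 1439670 to 6133147 counts limit what can be said of Ppara, Cpt1b, Acaa1b and Pdk4 where they are near 0.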

Other observations

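In the test of whether the ciEPC to ciHep step differed with origin, 27 of 100 other pathway genes had a negative difference, MNF minus MEF, and 7 a positive one. Angptl4 and Hilpda were among the 7. Angptl4, a secreted inhibitor of lipoprotein lipase and a known PPAR target, averaged 70.4 ± 2.10 CPM in MNF_ciHep (SD, n = 2) against 0.487 ± 0.190 CPM in MNF_ciEPC. That was a rise of 7.08 (SE 0.48, adjusted p = 2.69e-07 by edgeR). Its step was larger than in MEF cells by 3.24 (SE 0.61, adjusted p = 0.000929 by edgeR). MEF_ciHep itself measured 42.3 to 71.5 CPM. The MEF_ciEPC samples in that test included series 1 passage 2 at 22.2 CPM and the stem-cell-like library at 10.4 CPM. Angptl4 was at 0 to 4.29 CPM in the rest of MEF_ciEPC, so those libraries raised the level from which the MEF step was measured. Hilpda, a lipid droplet protein known to respond to hypoxia, was higher in MNF_ciHep (68.3 ± 5.94 CPM) than in MEF_ciHep (26.9 ± 9.46 CPM), with a difference of the steps of 2.40 (SE 0.44). Fabp4, a binding protein of adipocytes and macrophages, averaged 16.1 ± 5.63 CPM in MNF_ciHep with 87 counts, against 0 in MNF_ciEPC, at least 69.8-fold higher with 3 counts over that group as the floor. Cidec, a lipid droplet protein, was among the 27 (-8.06, SE 1.22) and measured 37.5 to 60.6 CPM in MEF_ciHep and at most 0.594 CPM in MNF_ciHep, while the adipocyte markers Adipoq, Plin1 and Lep were at 0 in MEF_ciHep.

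Txnip, which limits glucose uptake, averaged 941 ± 585 CPM (SD, n = 3) in MEF_ciHep against 124 ± 113 CPM in pHep (n = 2), a difference of 2.93 (SE 0.67, adjusted p = 0.00289 by edgeR). In MNF_ciEPC against MNF it fell by 3.47 on the log2 scale (SE 0.71). Pparg, the receptor best known from fat cells, averaged 87.4 ± 14.4 CPM in MEF_ciHep and 11.1 ± 2.66 CPM in pHep (2.97, SE 0.41), where Ppara was lower than in pHep (-3.12, SE 0.64).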
